A study of Mus musculus with 4 samples.

Results

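The thioredoxin system of NIH-3T3:Per2-Luc cells was followed over 4 Agilent one-color arrays of 1 slide, through thioredoxins (*Txn1*, *Txn2*), thioredoxin reductases (*Txnrd1*, *Txnrd2*, *Txnrd3*), sulfiredoxin (*Srxn1*) and the thioredoxin inhibitor *Txnip*. Every probe whose annotated gene name is one of these 7 genes was taken, which gave 10 of the 39429 probes on the array, each printed as a single spot. NIH-3T3:Per2-Luc is an established mouse fibroblast line carrying luciferase under the *Per2* promoter. The control array (0 mM H2O2, labelled 4 h) held RNA of cells given a change to fresh medium only, and the other arrays held RNA of cells that had received a cOS-pulse (critical oxidative stress, 5 mM H2O2 for 10 min) 4 h, 20 h or 32 h earlier. Each condition had 1 array and 1 RNA sample, so no statistical test was possible, and the control matches only the 4 h array in time.

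Thioredoxins are small proteins that reduce disulfides in other proteins, and thioredoxin reductases return them to their reduced form with electrons from NADPH. Peroxiredoxins, which break down H2O2, draw on reduced thioredoxin, and sulfiredoxin repairs peroxiredoxins that H2O2 has over-oxidized. TXNIP, a member of the alpha-arrestin family, binds reduced thioredoxin and also restrains glucose uptake. *Txnrd1* and *Srxn1* are known target genes of Nrf2, the transcription factor behind the anti-oxidant response, while *Txnip* is known as a target of the glucose-sensing factors MondoA and ChREBP. In bulk RNA, as here, fewer cells expressing a gene and less of its RNA in each cell cannot be told apart.

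The promoters of the members furthest from the control at 4 h, *Srxn1*, *Txnrd1* and *Txnip*, are shown because they place the changed genes beside the DNA motifs of stress-responsive factors. The 250 bases before each gene start were taken from RefSeq (build GRCm38.p6, a later build than the mm9 of the array annotation), where all 7 genes matched. Both strands were searched for the core of the antioxidant response element (ARE, TGACNNNGC), the AP-1 site (TGANTCA), the E-box (CACGTG) and a heat shock element core (GAANNTTC). Capitals mark a match, and no marked matches overlapped. The *Srxn1* window lies on the plus strand at chr2:152105274-152105523, the *Txnrd1* window, before the middle of 3 annotated starts, on the plus strand at chr10:82858956-82859205, and the *Txnip* window on the plus strand at chr3:96557707-96557956.
Srxn1: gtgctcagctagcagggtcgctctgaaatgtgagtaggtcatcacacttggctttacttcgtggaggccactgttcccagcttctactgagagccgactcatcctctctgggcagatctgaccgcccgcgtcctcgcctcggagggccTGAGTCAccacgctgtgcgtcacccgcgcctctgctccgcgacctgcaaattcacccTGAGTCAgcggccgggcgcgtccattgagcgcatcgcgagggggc
Txnrd1: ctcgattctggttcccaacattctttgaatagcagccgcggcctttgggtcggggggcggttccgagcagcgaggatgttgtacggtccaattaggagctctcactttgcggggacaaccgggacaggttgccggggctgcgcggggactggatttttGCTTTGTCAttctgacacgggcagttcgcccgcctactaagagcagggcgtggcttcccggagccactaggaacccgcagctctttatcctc
Txnip: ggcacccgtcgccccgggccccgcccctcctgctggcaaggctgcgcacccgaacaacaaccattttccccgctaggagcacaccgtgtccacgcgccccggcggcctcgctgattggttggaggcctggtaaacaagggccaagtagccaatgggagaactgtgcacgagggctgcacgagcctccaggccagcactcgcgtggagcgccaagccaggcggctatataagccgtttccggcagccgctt
The *Srxn1* window held the AP-1 motif at 2 positions, from 102 to 96 and from 45 to 39 bases before the gene start, both written TGAGTCA. Of all 32851 promoters in the reference, 6.75% held this motif in the same window. With the gc that follows it, the *Srxn1* match nearer the gene start differs on the plus strand from the ARE core searched by 1 base, G for C. On the minus strand both matches, read with the cc before them, also differ from this core by 1 base, G for C. Looser forms of the ARE were not searched. The *Txnrd1* window held 1 ARE core on the minus strand, from 92 to 84 bases before the start. This motif was present in 10.2% of all promoters, counted per window, while 3 windows were searched for *Txnrd1*. The window printed is the one with a match, and which start the cells used was not examined. The E-box and the heat shock element core, present in 6.02% and 6.69% of all promoters, had no match in any window of the 7 genes. None of the 4 motifs was found in the *Txnip* window, nor in those of *Txn1*, *Txn2*, *Txnrd2*, *Txnrd3* or the other starts of *Txnrd1*. These matches describe letters in a short window and say nothing of binding. No motif specific to MondoA or ChREBP was searched, so the *Txnip* window was not examined for sites of these factors.

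*Txn2* and *Txnip* were each measured by more than 1 probe, and the last 30 bases of these probes are shown because the probes of *Txn2* are annotated to different RNAs of the gene. Capitals mark AATAAA, the letters of the polyadenylation signal, which usually lies near the end of an mRNA. Whether the matches act as such a signal was not examined.
Txn2 A_55_P1960231: aagtcagaccAATAAAaccaggtttgcact
Txn2 A_55_P2023572: acacaaaatcagaagaaagttctggagtga
Txn2 A_55_P2023577: aaacaaacaaacaaaacattaaAATAAAca
Txnip A_51_P438805: tcaattttgttttagtctccgttatagatg
Txnip A_55_P2006255: tgtacgcccctgagttccagttcatgcccc
In the array annotation, *Txn2* A_55_P1960231 (chromosome 15, 77745481 to 77745540, mm9) belongs to the reference mRNA NM_019913, and the other probes belong to the cDNAs AK160591 and AK090199. These probes start 11572 and 8180 bases further upstream on the genome. Both *Txnip* probes belong to NM_001009935 and start 941 bases apart on chromosome 3.

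The deposited signals were the background-subtracted intensities of the scanner software, which are given below as log2 values, each array having its own 75th percentile set to 0. Levels therefore compare 1 probe between arrays and not 1 probe with another. A probe counted as detected where the software called it well above background, as it did for 52.7% to 59.1% of all probes. Of the 10 member probes, 9 were detected on all 4 arrays, and none was saturated or flagged. The remaining probe, *Txn2* A_55_P2023577, stayed near background throughout, and no ratio was taken for it. The ± values are spot errors from the software, about 10.0% of the signal on each array, and cover neither cultures nor RNA preparations. Over probes printed 10 times, the median SD of the log2 ratio of 4 h over the control between spots was 0.055 (228 probes).

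The cells carried the markers of their label, since all 8 fibroblast genes listed (among them *Col1a1*, *Col1a2*, *Vim* and *Pdgfrb*) were well above background on all arrays, with a summed scaled signal of 809 to 908. The sum hides lower levels of single genes, since *Pdgfrb* was 2.56-fold lower than in the control at 4 h, and *Thy1*, *Col1a1* and *Col3a1* were 2.62-fold, 2.08-fold and 2.02-fold lower at 20 h. Of the markers of other cell types, *Ptprc* and *Emr1* (macrophages), *Tek* (endothelium), and *Epcam*, *Cdh1*, *Cldn4* and *Krt18* (epithelium) stayed near background on every array. *Cd68*, *Csf1r* and *Itgam* (macrophages), *Kdr* and *Pecam1* (endothelium) and *Krt8* (epithelium) were detected on all arrays, and *Cdh5* (endothelium) on all but the 32 h array. At 4 h *Cd68* was 4.23-fold higher than in the control with A_55_P1961943 and *Cdh5* 3.65-fold higher, both past 2-fold under the 5 other scalings. *Krt8* was 2.25-fold and 2.15-fold higher with its 2 detected probes. *Itgam* was at least 2.12-fold higher with A_55_P1977929 but 1.49-fold and 1.16-fold with its other detected probes. The 2.25-fold call of *Krt8* ended with median, spike-in or no scaling. Those of 2.15-fold (*Krt8*) and at least 2.12-fold (*Itgam*) ended under all 5 other scalings. *Cdh5* was also at least 2.24-fold higher at 20 h than at 32 h. The summed signal of the 5 macrophage genes was 22.4 in the control, 34.0 at 4 h, 12.5 at 20 h and 13.1 at 32 h, 3 of the 5 being detected on each array, and was mostly that of *Itgam* A_55_P1977934. That of the 4 endothelial genes was 3.23, 4.31, 4.22 and 4.14 in the same order, with 3, 3, 3 and 2 detected, and that of the 5 epithelial genes 0.670, 1.44, 0.846 and 0.794, with 1 detected. Their part in the results was not tested.

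At 4 h after the cOS-pulse, *Txnrd1* and *Srxn1* were 3.41-fold and 3.18-fold higher than in the control, and *Txnip* was 4.02-fold and 3.86-fold lower with its 2 probes. *Txnrd2* was 1.55-fold lower, and *Txn1*, *Txn2* and *Txnrd3* lay within 1.34-fold of the control. At 20 h and 32 h, every detected probe lay within 1.35-fold of the control. Member probes at least 2-fold higher at 4 h thus numbered 2 of the 9 with a ratio, beside 11.2% of all probes with a ratio (2671 of 23813), and those at least 2-fold lower numbered 2, beside 8.18% (1947 probes). The median log2 ratio of the 9 member probes was 0.19, beside 0.17 for all 20392 probes detected on both arrays.

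**Figure D1:**
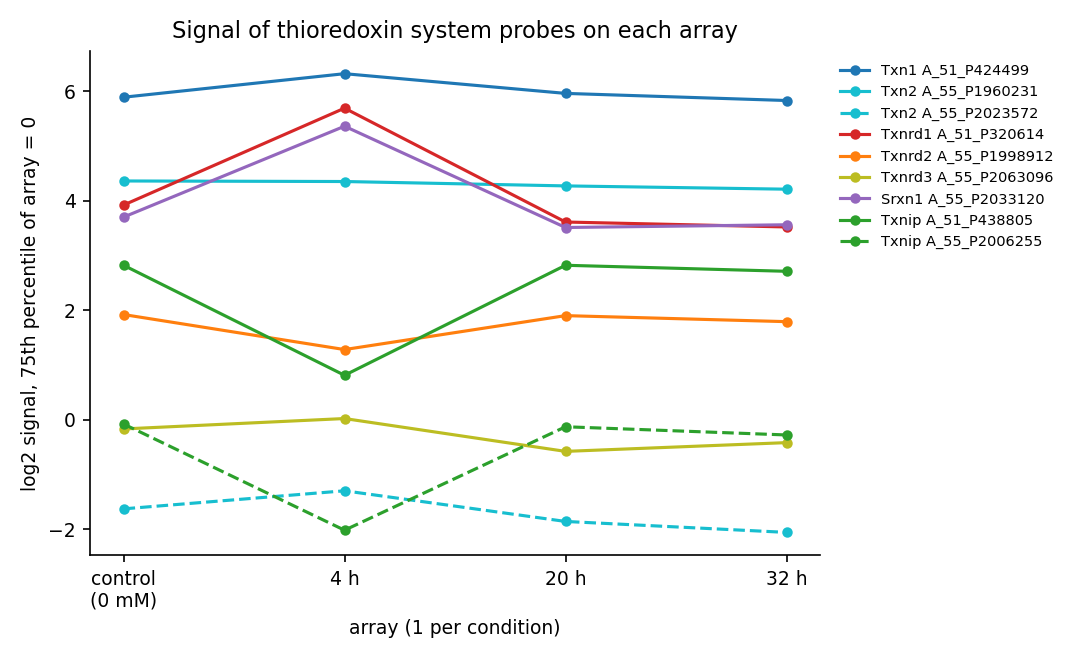
Log2 signal of the 9 detected member probes (y axis, 75th percentile of each array = 0) on the 4 arrays (x axis, 1 array per condition, each point 1 spot), with dashed lines for the dimmer probe of *Txn2* and of *Txnip*. Heights of different probes are not comparable, and a reader should see *Txnrd1* (3.92 to 5.69) and *Srxn1* (3.70 to 5.36) peak at 4 h while both *Txnip* probes dip there.

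*Txnrd1*, the cytosolic reductase that regenerates thioredoxin 1, was measured by A_51_P320614 (chromosome 10, 82360230 to 82360289, mm9), whose 60 bases start at base 3394 of NM_001042523. Its scanner intensity was 16700 in the control, 47000 at 4 h, 17000 at 20 h and 14300 at 32 h. On the scaled log2 axis the levels were 3.92, 5.69, 3.61 and 3.52. The 4 h array was thus high and the other 3 lay close together. The log2 ratio of 4 h over the control was 1.77 ± 0.20, and 363 of the 20392 probes detected on both arrays (1.78%) had a larger one. At 20 h and 32 h the log2 ratio to the control was -0.31 ± 0.20 and -0.40 ± 0.20, so that both late arrays lay below the control by more than the spot error. Under 5 other scalings between arrays the 32 h value lay between -0.42 and -0.22, whereas the 20 h value turned to 0.02 without scaling. From 4 h to 20 h the level was 4.23-fold lower.

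*Srxn1* encodes the enzyme that reduces over-oxidized peroxiredoxins, and its promoter is the one with the AP-1 motifs printed above. Its probe A_55_P2033120 (chromosome 2, 151937009 to 151937068, mm9) had an intensity of 14400 in the control, 37500 at 4 h, 15900 at 20 h and 14700 at 32 h. The scaled log2 levels were 3.70, 5.36, 3.51 and 3.56. As for *Txnrd1*, the 4 h array alone was high. The log2 ratio at 4 h was 1.67 ± 0.20, with 437 of the 20392 probes (2.14%) above it. At 20 h and 32 h it was -0.19 ± 0.20 and -0.14 ± 0.20, within the spot error of the control. The 4 h ratios of *Srxn1* and *Txnrd1* differed by 0.10 ± 0.29 on the log2 scale, a difference that no scaling by a constant can alter and that lay within the spot error.

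*Txnip*, the inhibitor of thioredoxin, differed in the other direction. A_51_P438805 (chromosome 3, 96365147 to 96365206, mm9) had an intensity of 7800 in the control, 1600 at 4 h, 9860 at 20 h and 8220 at 32 h, or scaled log2 levels of 2.82, 0.81, 2.82 and 2.71. The dimmer A_55_P2006255 (chromosome 3, 96364206 to 96364265) had scaled levels of -0.08, -2.02, -0.13 and -0.28. Both probes were low on the 4 h array only. Their log2 ratios at 4 h were -2.01 ± 0.20 and -1.95 ± 0.21, and differed from each other by less than the spot error. Only 179 (0.878%) and 213 (1.04%) of the 20392 probes had a lower ratio. At 20 h the ratios were 0.01 ± 0.20 and -0.05 ± 0.20, and at 32 h -0.10 ± 0.20 and -0.20 ± 0.21. From 4 h to 20 h the signal was 4.03-fold and 3.72-fold higher with the 2 probes.

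Set against each other on the same pair of arrays, the log2 ratios of *Txnrd1* and *Txnip* (A_51_P438805) at 4 h were 3.78 ± 0.29 apart, a 13.7-fold difference in the change. For *Srxn1* and the same *Txnip* probe the distance was 3.67 ± 0.29, or 12.8-fold. These distances do not depend on a scaling by 1 constant per array.

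**Figure D2:**
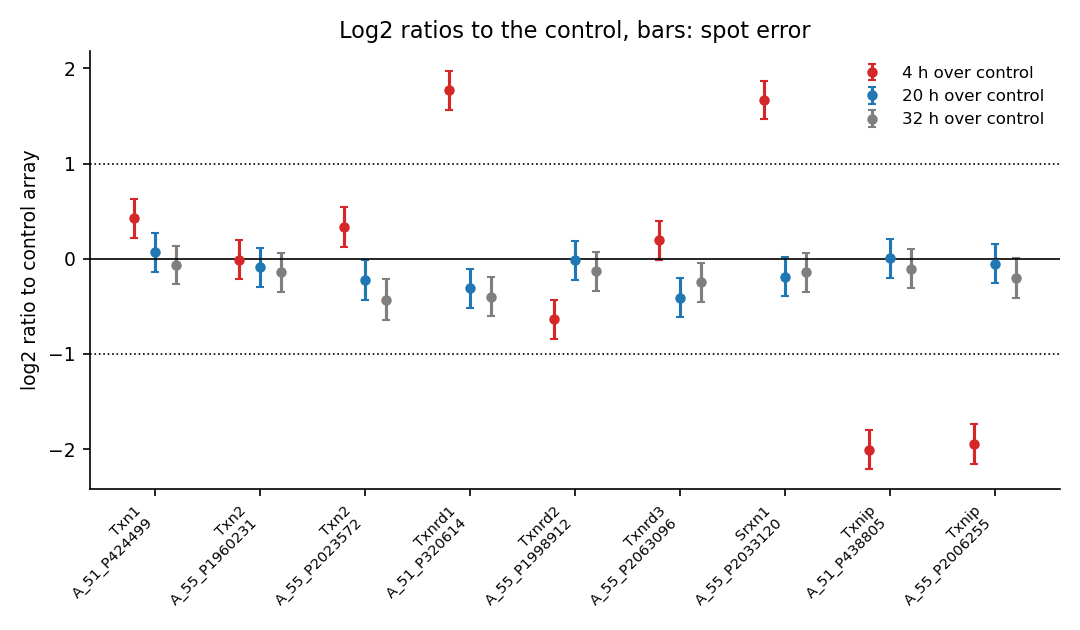
Log2 ratio to the control array (y axis) of each detected member probe (x axis) at 4 h, 20 h and 32 h, with bars for the spot error and dotted lines at 2-fold. Only *Txnrd1*, *Srxn1* and the 2 *Txnip* probes pass the dotted lines, and only at 4 h.

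The other reductases did not follow *Txnrd1* past 2-fold at 4 h. *Txnrd2*, the mitochondrial reductase, was measured by A_55_P1998912 (chromosome 16, 18479106 to 18479165, mm9), with scaled log2 levels of 1.92 in the control, 1.28 at 4 h, 1.90 at 20 h and 1.79 at 32 h. Here too the 4 h array stood apart, on the low side. The log2 ratio at 4 h was -0.64 ± 0.20, below the 2-fold threshold, and reached -1.04 with scaling by the spike-in controls. Its distance from *Txnrd1* at 4 h was 2.41 ± 0.29, so that the changes of the 2 reductases differed 5.31-fold. At 20 h and 32 h *Txnrd2* had -0.02 ± 0.20 and -0.13 ± 0.20.

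*Txnrd3* encodes the thioredoxin-glutathione reductase, known mainly from testis. Its probe A_55_P2063096 (chromosome 6, 89625375 to 89625434, mm9) had scaled log2 levels of -0.17 in the control, 0.02 at 4 h, -0.58 at 20 h and -0.42 at 32 h. The 4 h ratio of 0.19 ± 0.20 lay within the spot error and lay below 0 when arrays were scaled by the median or the spike-in controls, or were left unscaled. At 20 h and 32 h the ratios were -0.41 ± 0.21 and -0.25 ± 0.21, each below the control by more than the spot error, and between -0.42 and -0.07 over both times under the 5 other scalings.

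*Txn1*, the cytosolic thioredoxin, had scaled log2 levels of 5.89 in the control, 6.32 at 4 h, 5.96 at 20 h and 5.83 at 32 h with A_51_P424499 (chromosome 4, 57956677 to 57956736, mm9). Its 4 h ratio of 0.43 ± 0.20 exceeded the spot error and was 0.25 above the median of all detected probes. The ratio was between 0.02 and 0.30 under the 5 other scalings. At 20 h and 32 h *Txn1* had 0.07 ± 0.20 and -0.07 ± 0.20.

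*Txn2*, the mitochondrial thioredoxin, had scaled levels of 4.36, 4.35, 4.27 and 4.21, in array order from the control to 32 h, with A_55_P1960231, the probe of the reference mRNA. The 4 arrays could hardly be told apart, with log2 ratios of -0.01 ± 0.20, -0.09 ± 0.20 and -0.14 ± 0.20 to the control. The upstream A_55_P2023572 (chromosome 15, 77757053 to 77757112) had scaled levels of -1.63, -1.30, -1.86 and -2.06. Its ratios were 0.33 ± 0.21 at 4 h, -0.23 ± 0.21 at 20 h and -0.43 ± 0.21 at 32 h, and the 4 h ratio turned to -0.07 with spike-in scaling. At 4 h the 2 detected *Txn2* probes differed by 0.34 ± 0.29 in their ratios. A_55_P2023577 (chromosome 15, 77753661 to 77753720) had intensities of 21.1, 24.9, 8.94 and 32.3, none well above background.

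**Figure D3:**
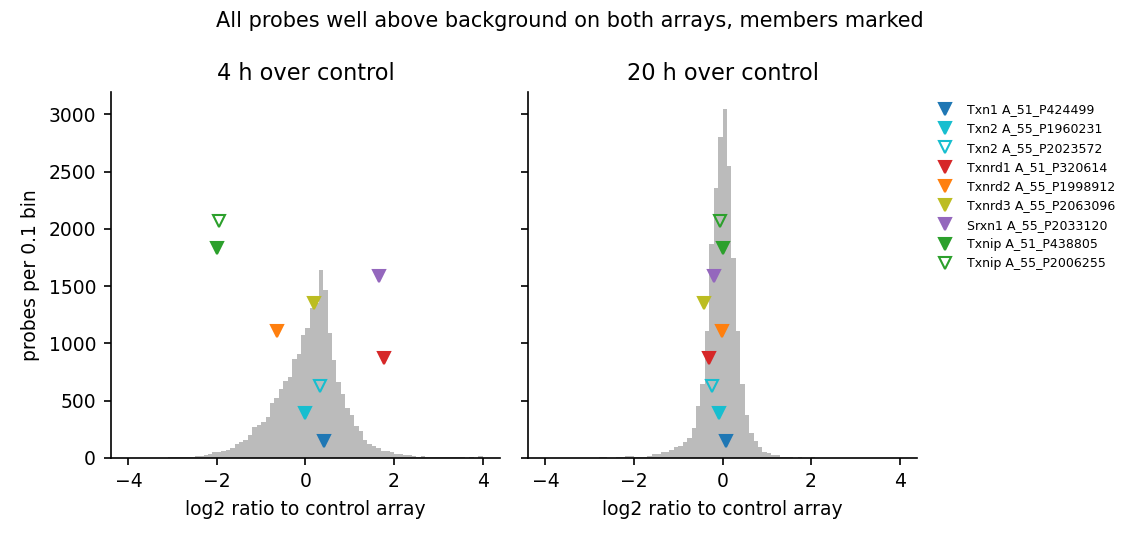
Log2 ratios to the control (x axis) of all probes detected on the pair of arrays compared, for 4 h (left) and 20 h (right), as the number of probes per bin of 0.1 (y axis), with triangles for the member probes stacked at arbitrary heights. At 4 h *Txnrd1* (1.77) and *Srxn1* (1.67) lie in the right tail and both *Txnip* probes (-2.01 and -1.95) in the left one, and at 20 h all 9 lie within the bulk.

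At 20 h, no member probe was at least 2-fold above or below the control, beside 1.37% of all probes higher and 3.35% lower. The 9 log2 ratios lay between -0.41 and 0.07, and 6 were within the spot error. At 32 h there was likewise none, beside 2.07% of all probes higher and 2.59% lower. All 9 ratios were then below 0, between -0.43 and -0.07, with 6 within the spot error. Their median at 32 h was -0.14 beside -0.01 for all detected probes. Scaling by the spike-in controls, or none, turned some of these small ratios above 0, among them *Srxn1* and *Txnip* A_51_P438805 at 32 h (up to 0.04 and 0.08). The 20 h and 32 h arrays had no control of their own time, so the cOS-pulse and the hours in culture cannot be told apart there.

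The hours 20 h and 32 h lie close to opposite phases of a circadian day, and their comparison addresses circadian fluctuation. No member probe differed at least 2-fold between them, beside 0.902% of all probes higher at 20 h and 1.93% lower. All 9 log2 ratios of 20 h over 32 h, from -0.16 (*Txnrd3*) to 0.20 (*Txn2* A_55_P2023572), lay within the spot error. *Txnip* had 0.11 ± 0.20 and 0.15 ± 0.20, *Txnrd1* 0.09 ± 0.20 and *Srxn1* -0.05 ± 0.20. The spot error is an estimate of the software, while the median SD of this ratio between spots was 0.046 (230 probes printed 10 times). Neither covers cultures or RNA preparations. With 1 array per time point, a small fluctuation could not be told from variation between cultures. A rhythm at the same level at 20 h and 32 h would show no difference here, whatever its size.

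The directions of the 4 h differences past 2-fold were set against 5 other scalings between arrays, since the 75th percentile of the 4 h array lay 0.28 below that of the control on the log2 scale while its median lay 0.08 above. *Txnrd1* kept 1.36 to 1.65, *Srxn1* 1.27 to 1.54, and the *Txnip* probes -2.40 to -2.06 and -2.35 to -2.03. The median of all detected probes moved from 0.17 to between -0.23 and 0.05.

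**Figure D4:**
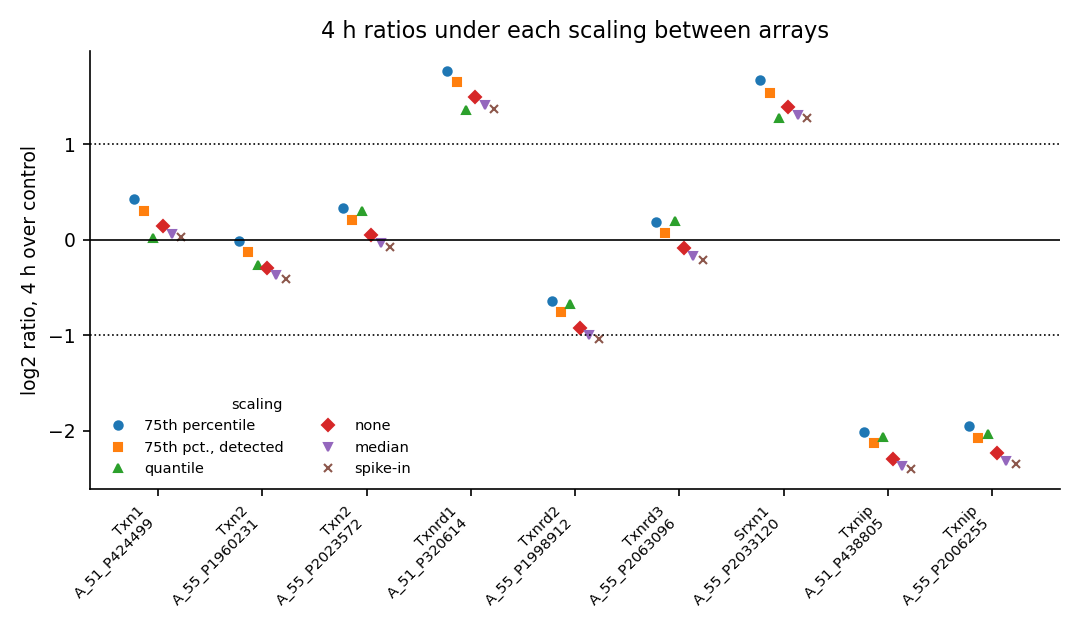
Log2 ratio of 4 h over the control (y axis) of each detected member probe (x axis) under 6 scalings between arrays (symbols), with dotted lines at 2-fold. *Txnrd1*, *Srxn1* and both *Txnip* probes stay past 2-fold under all 6, *Txnrd2* crosses it with spike-in scaling (-1.04), and *Txnrd3* and *Txn2* A_55_P2023572 change sign.

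Genes related to the thioredoxin system, by function or only by fold or family, were taken from 5 lists. The lists held 53 genes on the array (80 probes, 73 with a ratio at 4 h). Of these probes, 6 (8.22%) were at least 2-fold higher at 4 h and 7 (9.59%) at least 2-fold lower, beside 11.2% and 8.18% of all probes, against which the counts of each list are to be read. The higher calls depended on the scaling, with 3 higher and 13 lower when arrays were scaled by the median and 1 higher and 15 lower with the spike-in controls. Of the 16 probes of thioredoxin clients with a ratio (17 in all), 1 was higher and 3 were lower, with a median of -0.54 over 12 genes. This median, like those of the other lists, takes only the brightest probe of each gene, where detected on both arrays. The list medians were taken with the main scaling only. *Prdx1*, a cytosolic peroxiredoxin and substrate of sulfiredoxin, was 2.53-fold higher with 1 probe and 1.93-fold with the other, and lay below 2-fold with median, quantile or spike-in scaling (log2 ratio down to 0.90). *Msrb2*, a mitochondrial methionine sulfoxide reductase, was 3.83-fold lower. *Rrm1* and *Rrm2*, the subunits of ribonucleotide reductase, which makes deoxynucleotides with electrons from thioredoxin or glutaredoxin, were 2.55-fold and 2.28-fold lower. The 7 lower calls over the lists remained past 2-fold under all 5 other scalings.

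Of the 24 probes of thioredoxin-fold relatives with a ratio (29 in all), 2 were higher and 1 was lower (median 0.17, 17 genes). *Txnl4a*, a spliceosome component, was 2.31-fold and 1.61-fold higher with its 2 probes, the first of which stayed past 2-fold under 1 of the 5 other scalings. *Txndc9* was at least 8.02-fold higher with 1 probe, which the control array did not detect, and remained past 2-fold under all 5, while its other probes were 1.46-fold and 1.43-fold higher. *Nxn*, nucleoredoxin, was 3.52-fold lower with 1 probe and 1.63-fold with the other. No probe of the glutaredoxin system passed 2-fold at 4 h (9 probes, median 0.36 over 5 genes), and *Gsr*, the glutathione reductase, was 1.58-fold and 1.46-fold higher. *Glrx*, cytosolic glutaredoxin, was the only gene of the 5 lists to reach 2-fold at 32 h, with scaled log2 levels of 2.64 in the control and 1.64 at 32 h. It lay at the threshold itself, and this call was not set against the other scalings. It made 1.43% of the 70 list probes with a ratio at 32 h, beside 2.59% of all probes at least 2-fold lower. None of the lists passed 2-fold at 20 h, when *Glrx* was 1.98-fold lower.

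Among the arrestin relatives of *Txnip* and the factors that control it, 2 of the 12 probes with a ratio (13 in all) were higher and 1 was lower (median -0.23, 7 genes). *Arrdc4*, another alpha-arrestin, had a log2 ratio of -1.58 ± 0.20 with A_55_P2101191 but had a log2 ratio of 0.05 ± 0.20 with A_51_P111612, so its probes disagreed. Only the first, the brighter, entered the median. *Arrdc1* was at least 2.59-fold higher with A_55_P1958285, again undetected in the control, and had -0.42 ± 0.21 with its other probe. *Mlxipl*, which encodes ChREBP, was 2.63-fold higher with A_55_P2119957 and 1.47-fold higher with the brighter A_55_P2045158. The first was dim in the control (scaled log2 level -4.09, where the lowest detected signal was -4.76) and was detected on 3 arrays. *Mlxip*, which encodes MondoA, was 1.52-fold higher with A_51_P246727. *Mlx*, their common partner, had a log2 ratio of 0.00 ± 0.21. The higher calls of *Arrdc1* and *Mlxipl* ended with spike-in scaling.

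Thioredoxin reductases are selenoproteins, and the machinery that inserts selenocysteine was therefore listed. Of its 12 probes, 1 was at least 2-fold higher at 4 h and 2 were lower (median -0.23, 8 genes). *Sephs2*, which makes the selenium donor, was 2.36-fold higher, and below 2-fold with median, spike-in or no scaling (log2 ratio down to 0.84). *Pstk*, the kinase that acts on the selenocysteine tRNA, was 2.90-fold lower, and *Eefsec*, the elongation factor for selenocysteine, 2.86-fold lower.

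**Figure D5:**
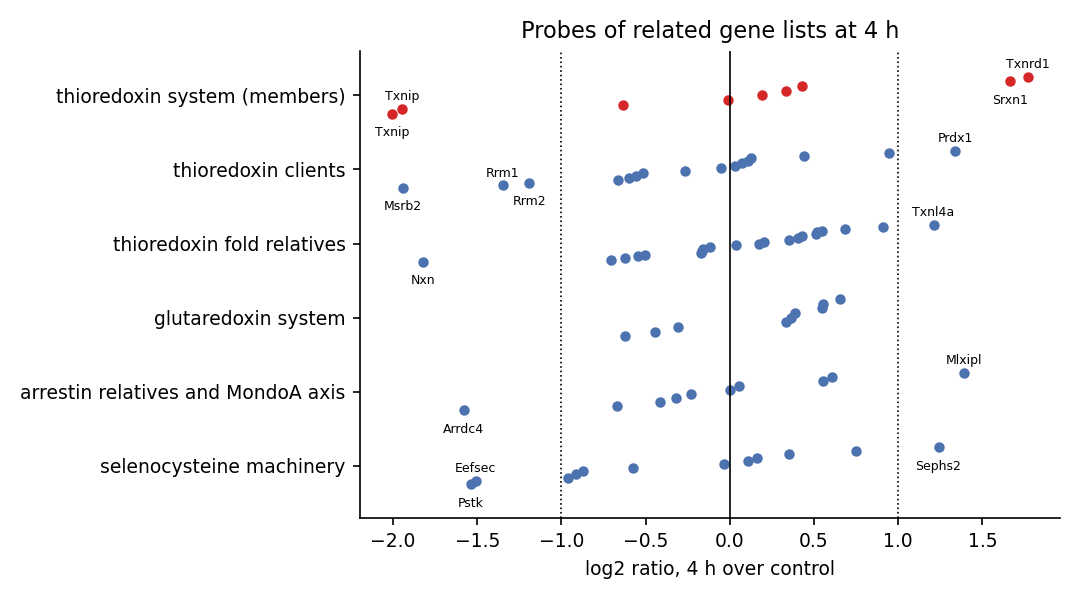
Log2 ratio of 4 h over the control (x axis) of every probe detected on both arrays in the thioredoxin system (red) and 5 related lists (blue), 1 point per probe, with dotted lines at 2-fold and names for probes past them. Points past 2-fold lie on both sides, from *Msrb2* (-1.94) to *Mlxipl* (1.39, a probe dim in the control) among the related lists.

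The genes whose pattern over the 3 ratios to the control lay nearest to each member past 2-fold were found among 16479 probes with a gene symbol detected on all 4 arrays, by Euclidean distance on the log2 scale. With 4 arrays the likeness is a description only. Nearest to *Txnrd1* were *Alkbh1* (distance 0.095, with 1.72 at 4 h), *D16Ertd472e* (0.132, with 1.73) and *Prmt6* (0.138, with 1.64). Nearest to *Srxn1* were *Xpo4* (0.056, with 1.65), *Slc48a1* (0.083, with 1.64) and *Slc25a33* (0.109, with 1.59). Nearest to *Txnip* A_51_P438805 were *Lrrcc1* (0.078, with -1.96), *Accs* (0.097, with -1.98) and *Dera* (0.098, with -2.06).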

How the data were processed

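Total RNA was hybridized to 4 one-color Mouse GE 4x44K v2 arrays on 1 slide. The authors deposited the scanner software's intensities (Agilent Feature Extraction 10.7.3.1), with background and a spatial trend subtracted, and a table of linear ratios, which over all 44397 spots equalled each array's intensities over a single constant to within 0.000122%. Members and lists were chosen with earlier results of these data known. From the intensities, log2 signals were averaged over unflagged spots of each of 39429 probes, less the 75th percentile of that array. A probe was detected if 50% or more of its spots carried the software's call of well above background. With detection on 1 array only, the ratio was a bound, taken against the dim array's lowest detected signal or the probe's own signal, whichever was higher. Spot errors were propagated over both arrays. Named were all member probes, genes of the related lists and markers past 2-fold in any comparison, and the 3 genes nearest to each member past 2-fold at 4 h. Other genes named (*Gsr*, *Mlx*, *Mlxip*, and markers by their detection) were chosen after their values were seen. The SAM test that the methods name needs replicates and was not run. Alternatives were 5 scalings (median, quantile, 75th percentile over commonly detected probes, 8 spike-in probes, none), normexp with an offset of 50 (limma 3.58.1, R 4.3.3), other detection rules, flagged spots kept, the deposited table, and thresholds of 1.5-fold and 3-fold. The steps were tested on simulated data. Python 3.11.15, numpy 2.4.6 and pandas 2.3.3 were used.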

Additional observations from a re-analysis of the deposited data

Results flagged for a closer look

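*Txnrd1* and the upstream *Txn2* probe A_55_P2023572 lay above the control at 4 h and below it later, each by more than the spot error. *Txnrd1* had a log2 ratio of 1.77 at 4 h, -0.31 at 20 h and -0.40 at 32 h. The *Txn2* probe had 0.33 at 4 h, -0.23 at 20 h and -0.43 at 32 h. Left unscaled, the 20 h ratios were 0.02 and 0.10, and the 4 h ratio of the *Txn2* probe was as low as -0.07 with spike-in scaling. With 1 array per time point these differences between time points were not tested.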

How the results depend on the processing

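Of the 13 alternatives, none changed the 2 member probes at least 2-fold higher at 4 h, and the 2 lower ones became 3 under spike-in scaling and under a threshold of 1.5-fold, through *Txnrd2*. No value past 2-fold changed sign. With no filter on dim probes, and with the flag for positive and significant signals, 1 member probe, *Txn2* A_55_P2023577, was at least 2-fold lower at 20 h than in the control and than at 32 h, where the main setting had 0. Its 20 h signal is a surrogate value of the scanner software. Over the 5 related lists, the main setting had 6 probes higher and 7 lower at 4 h, against 3 and 13 when arrays were scaled by the median, 1 and 15 when scaled by the spike-in controls, 14 and 16 with a threshold of 1.5-fold, and 1 and 2 with a threshold of 3-fold. No paired analysis was possible because each condition had 1 array. The number of arrays and, near background, the signal limit what can be seen.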
